A study of Mus musculus with 2 samples.

Results

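Gene end peaks are the E2F1 peaks that the authors placed only downstream of genes or in 3' untranslated regions (UTRs). They numbered 372 of the 5667 peaks in the deposited list, or 6.56% (exact binomial 95% interval 5.93% to 7.24%). A peak was taken as a member when each gene entry it had was of one of these 2 locations, so no measured strength entered the choice. Of the 372, 339 lay past a gene and 33 in a 3' UTR, and together they named 361 genes.

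Primary hepatocytes, which form most of the liver's mass, were taken from C57Bl6J mice, infected with an adenovirus expressing E2F1 and harvested 36 h later. Both groups came from such infected cells. The ChIP record is chromatin pulled down with the anti-E2F1 antibody c20, and the input record is chromatin with no antibody. The series text describes 2 replicates, each a combination of 2 ChIPs, but 1 peak list was analysed here, so the values below carry no replicate error. E2F1 was overexpressed, no cells without the E2F1 virus were analysed here, and the peaks cannot show whether E2F1 at its natural level binds the same places. A peak list holds no expression values, so the hepatocyte label could not be checked against marker genes. Sequencing depth is unknown, since no read totals were at hand. Fold is the authors' ratio of ChIP signal over the background that the peak caller expects from the input, and tags are reads counted in the called region.

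E2F1 pairs with a DP protein and is known for binding near the start of genes for DNA synthesis and cell division, at a motif of the form TTTCCCGC, TTTCGCGC, TTTGCCGC or TTTGGCGC. The retinoblastoma protein holds it inactive until cells commit to S phase. The end of a gene is where transcripts are cut and polymerase is released, and the space behind it can hold short genes of other kinds, such as those of transfer RNAs (tRNA) and of small nuclear RNAs (snRNA), the RNA parts of the spliceosome.

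No genome of the build of the peaks (mm9) was used here, so the bases under the peaks themselves are not shown. The sequences printed are 30-base stretches from RefSeq promoters (GRCm38.p6, 250 bases before to 50 after a gene start). They are shown because these promoters lie at, or belong to the same gene as, a gene end peak described below. Capitals mark a match to the motif on either strand, each stretch is written 5′ to 3′ on the gene's strand, and the last 2 genes also have a peak at their own promoter.
Ncapg2, first match, chr12:116405186-116405215, + strand: gGCGGGAAAcacagccagcagctctgcgcc
Ncapg2, second match, chr12:116405425-116405454, + strand: ctggtccgagcGCGGGAAActatgggtctg
E2f3, chr13:29986056-29986085, - strand: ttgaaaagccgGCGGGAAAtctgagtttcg
Hist1h2ah, chr13:22035629-22035658, - strand: cgggcctccttTTTCGCGCcctggcttgac

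Gene end peaks were, on the whole, weak members of the list, with a few strong ones. Their median fold was 4.50 (quartiles 3.71 and 6.11, range 2.30 to 32.6), and the 5295 other peaks had a median of 4.96 (quartiles 3.78 and 7.38). The exact binomial 95% interval of the gene end median, 4.38 to 4.75, lay below the median of the other peaks. Their median tag count was 132.5, against 150 in the other peaks, and their median false discovery rate 2.63% against 1.80%. Called regions had a median length of 1845 bp at gene ends and 1921 bp elsewhere. No test between peaks was run, since peaks of 1 list are not replicates, and these values describe this list.

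Among the classes of position, gene end peaks were closest in median fold to those upstream of genes. The 382 peaks that lay only upstream of a gene, farther from its transcription start site (TSS) than the authors' promoter class, had a median fold of 4.63 and a median of 130 tags. Median folds were 3.91 in the 2288 intragenic peaks and 6.49 in the 2625 peaks at promoters. A fold of at least 10 was reached by 29 gene end peaks, or 7.80% (95% interval 5.28% to 11.0%), where 12.8% of all listed peaks reach it. The share was 8.64% in upstream peaks (interval 6.02% to 11.9%), 3.67% in intragenic peaks (2.94% to 4.53%) and 22.0% at promoters (20.4% to 23.6%). The interval for gene ends thus overlapped that for upstream peaks and lay apart from those for the other 2 classes.

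**Figure D1:**
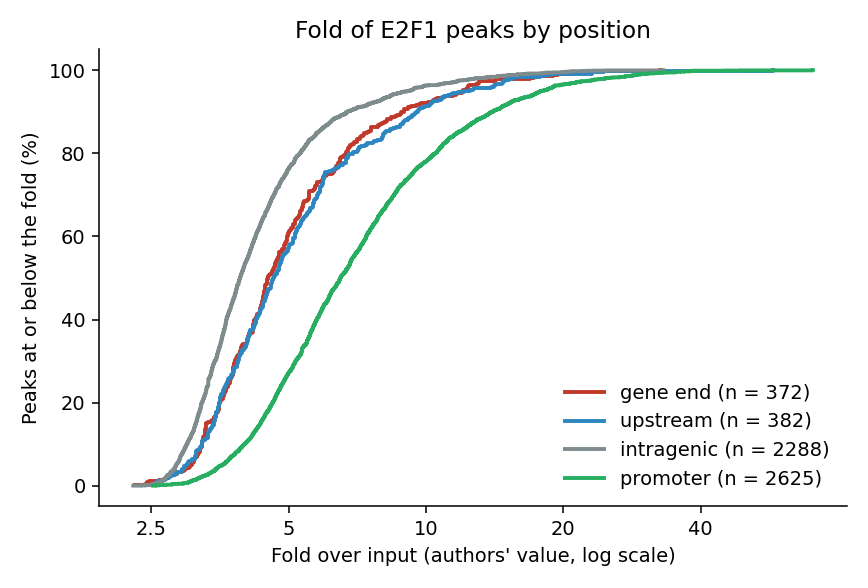
Cumulative share of peaks (vertical axis, percent) at or below a given fold over input (horizontal axis, log scale) for gene end, upstream, intragenic and promoter peaks. The gene end curve, with a median of 4.50, runs beside the upstream curve (4.63), between intragenic (3.91) and promoter peaks (6.49).

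Outside the rule, 409 peaks had 1 entry at a gene end and another entry elsewhere. The combinations were 306 peaks that also lay inside another gene, 98 at another gene's promoter, and 3' UTR entries with a gene body in 3 peaks and a promoter in 2. Their median fold was 4.41 and 7.33% reached a fold of 10. No peak had both an upstream and a downstream entry.

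Peaks past genes lay 0 to 19945 bp from the gene end, with a median of 5084 bp (quartiles 1403.5 and 11564.5 bp). The deposited distance of these entries runs to the gene end. In 85.5% of 330 entries with a matched gene it was shorter than the gene itself. Another check used 177 genes with an entry measured to the TSS and a downstream entry. In 144 of them (81.4%), the span so placed was within 10% of the RefSeq gene length. At each of 10 genes with several such peaks, all of them placed the gene end within 10 bp of each other. Any fixed reference point on the same side would give this too. The distance was 0 bp, measured from the 301 bp window around the summit, at 46 peaks of both kinds, and 111 peaks (29.8%) were within 1000 bp. In the 201 peaks within 5000 bp the median fold was 4.33 and 10 reached a fold of 10. In the 171 peaks farther out the median fold was 4.95 and 19 did so, or 11.1%. More than 10000 bp out, 12 of 99 gene end peaks reached a fold of 10 (12.1%). Of 158 upstream peaks that far from a TSS, 11 did so (6.96%). Nearer in, the upstream share was the higher one. It was 10.1% against 9.72% at gene ends between 5000 and 10000 bp, and 9.41% against 4.98% within 5000 bp. No upstream peak lay within 1000 bp of a TSS, so the shares within 5000 bp cover different spans. The share over all listed peaks was 12.8%, and these differences were not tested.

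**Figure D2:**
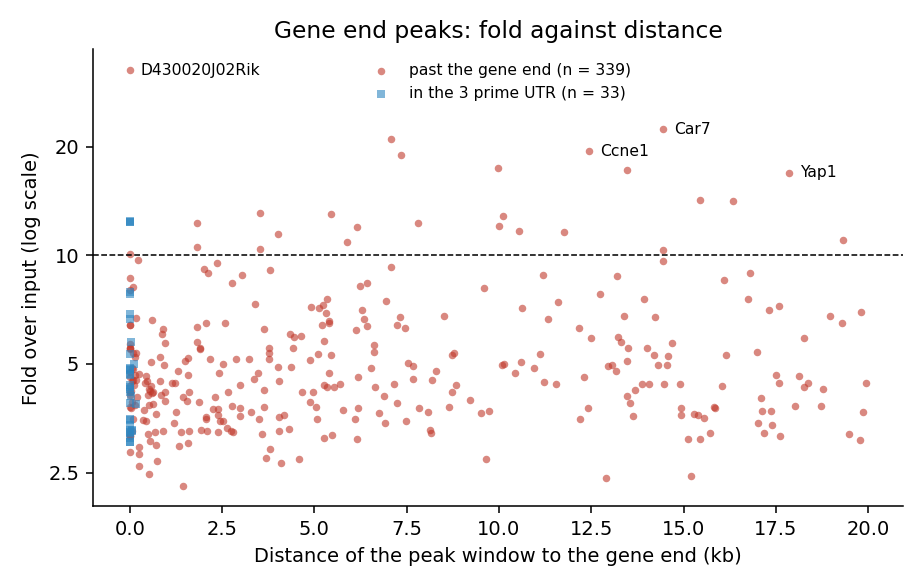
Fold over input (vertical axis, log scale) of each gene end peak against the distance of its window to the gene end (horizontal axis, kb), with the fold of 10 as a dashed line. Most points lie below a fold of 10 at every distance, and 19 of the 29 above it are more than 5 kb from the gene end.

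The strongest gene end peak lay at the annotated end of D430020J02Rik, a noncoding gene, on chromosome 12 from 117643568 to 117643868 (mm9, as all peak positions here). Its fold was 32.6 with 360 tags, and it ranked 20 among all listed peaks. The list itself placed another gene start there. A separate entry inside Ncapg2, which codes for a subunit of condensin II, the complex that compacts mitotic chromosomes, gives the TSS of that gene by its distance. This TSS lay 157 bp from the centre of the D430020J02Rik window. In RefSeq the promoters of both genes run on opposite strands and share 226 bases, which hold the first of the Ncapg2 matches printed above. The deposited location of this peak and the gene starts of RefSeq therefore disagreed, and it is kept here by the rule alone.

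Behind it came Car7, the gene of a carbonic anhydrase, with a fold of 22.4 at 14431 bp past the gene on chromosome 8 from 107088675 to 107088975. A peak 7078 bp past Gm5138, a pseudogene, had a fold of 21.0 and 445 tags. Ccne1, the gene of cyclin E1, which activates Cdk2 at S phase entry, had a peak 12451 bp past its end on chromosome 7 from 38870251 to 38870551. Its fold was 19.4 with 174 tags, while the peak at its own promoter had a fold of 17.3 with 276 tags. The next gene past Ccne1 was the noncoding Gm30771. These 3 peaks thus lay between 7078 and 14431 bp from the genes they are named for.

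Among the next ranks, Btn1a1, the gene of the milk protein butyrophilin, had a fold of 19.0 and 679 tags at 7351 bp past the gene. The pseudogene Rpl30-ps6 had 17.3 at 13466 bp. Yap1, the coactivator that the Hippo pathway restrains, had a fold of 16.9 and 360 tags at 17847 bp past its end, on chromosome 9 from 7913851 to 7914151. Its promoter peak was the weaker of the pair, with a fold of 4.80 and 246 tags.

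Papd7, a noncanonical poly(A) polymerase gene, had a fold of 14.3 at 15455 bp. Wdr5, a core subunit of histone H3 methyltransferase complexes, had 13.1 at 3517 bp, and Bptf, the largest subunit of the remodeller NURF, 13.01 at 5448 bp. Also among the highest 15 were a peak past Snx6 (14.2), one past 1700067P10Rik (12.9) and those in the 3' UTRs of Lsr and Dmpk.

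In 3' UTRs, 3 of 33 peaks (9.09%, interval 1.92% to 24.3%) reached a fold of 10, and their folds were nearly equal. At Lsr, a lipoprotein receptor gene of the liver, the fold was 12.4 with 185 tags (chromosome 7, 31742593 to 31742893). Dmpk, the kinase gene whose 3' UTR carries the repeat of myotonic dystrophy in humans, had 12.4 and 133 tags, and the adaptor gene Shf 12.4 and 106 tags. The protein-coding genes next past these ends were Usf2, Six5 and Duox1.

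Lower 3' UTR folds were 7.92 at Ckb (creatine kinase B), 7.84 at Ttyh1, 6.87 at the hyaluronidase gene Hyal3, 6.67 at Glyr1 and 5.77 at RP23-349B4.25. At 3 peaks the 3' UTRs of a pair of genes overlapped the window, among them Ccdc125 and Cdk7 with a fold of 4.17, and Slc35b2 and Hsp90ab1 with 3.38. Cdk7 codes for the kinase that activates other cyclin-dependent kinases, and Hsp90ab1 for a cytosolic chaperone.

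At the other end of the range, the lowest folds were 2.30 at Tjp1, 2.42 at Uqcrfs1, 2.45 at Avpr1a, 2.47 at Herpud1 and 2.60 at Sf3b4. Their tag counts were 110 to 175, on both sides of the gene end median of 132.5, and their false discovery rates ran from 4.62% to 8.05%. The farthest members lay past Pid1 at 19945 bp (fold 4.44), Slco6c1 (3.69), Gm6721 (6.95), Gm13318 (3.08) and AA986860 (3.19).

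Many of the gene end peaks with the most tags had a small RNA gene as the next gene. For 316 of the 372 peaks the direction of the gene and the next gene past its end were known, the order of genes being that of RefSeq GRCm38.p6. These peaks belonged to 303 genes, and shares are given per gene. The next gene was a tRNA gene for 13 of them, or 4.29% (interval 2.30% to 7.23%), against 0.341% of 27015 genes in RefSeq and 0.568% of 4228 genes named by other peaks. It was a snRNA gene for 8, or 2.64% (interval 1.15% to 5.14%), against 1.53% of RefSeq genes, which lies within that interval, and 1.14% of genes named by other peaks. These 8 genes had 11 peaks, since Snx6 had 3 and Pecr 2. Small nucleolar RNA genes were next for 1.65% and microRNA genes for 0.990%, against 1.21% and 0.874% of RefSeq genes, both within the intervals. Of the 10 gene end peaks with the most tags, 529 or more each, the next gene was known for 8 and was a tRNA or snRNA gene at 6. The others among the 5 highest were Zfp239, a zinc finger gene with 704 tags and a noncoding gene next, and B930036N10Rik with 702 tags and no known next gene. How far each peak lay from the small RNA gene was not measured, since the builds differ. This grouping was chosen after the values had been seen, so it describes the list and has no test.

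Peaks with a snRNA gene next were mostly strong, though the 11 peaks belonged to 8 genes. Their median fold was 10.9 and their median tag count 513, and 6 of 11 reached a fold of 10, 3 of them past Snx6. In the 283 peaks whose next gene was not of these 4 small RNA kinds, the median fold was 4.48, the median tag count 126 and 6.01% reached a fold of 10. Snx6, a gene of endosomal sorting, had 3 such peaks on chromosome 12 between 55830686 and 55839531. They lay 7804, 11765 and 16349 bp past the gene, with folds of 12.3, 11.6 and 14.2 and tag counts of 513, 674 and 581. Pecr, a peroxisomal enzyme gene, had 2 on chromosome 1, with folds of 11.5 and 9.64 and tag counts of 383 and 529.

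The largest tag count of all gene end peaks, 824, belonged to a peak 5872 bp past Rdm1 on chromosome 11 from 101503287 to 101503587, with a fold of 10.9. The next genes past Rdm1 were 3 snRNA genes, the third being Rnu2-10. Wdr5, named above, was followed by the snRNA gene Gm25541 and its peak had 639 tags. Gm1661 had a fold of 9.52 and Rfx7 7.59, while the last 2 of these peaks were weak, at Manea (4.05) and Tcte2 (3.18). A snRNA gene next was thus found with weak peaks as well as strong ones.

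Peaks with a tRNA gene next had many tags but mostly ordinary folds, with medians of 299 tags and a fold of 4.37. Of the 13, 7 lay on chromosome 13 between 21292001 and 23541509, where many tRNA and histone genes lie together. The strongest by far was the Btn1a1 peak (19.0), followed there by Trim27 (6.56, 299 tags), Abt1 (4.77), Hist1h2ah (4.50), Pom121l2 (4.37), Hist1h2bl (3.92, 502 tags) and Hist1h2br (3.39). Elsewhere, Osbp had 514 tags with a fold of 3.71 and Ict1 346 tags with 4.33. Genes of tRNAs and snRNAs have near-identical copies, and the handling of reads with several matches is not stated, so the place of these tags is uncertain.

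**Figure D3:**
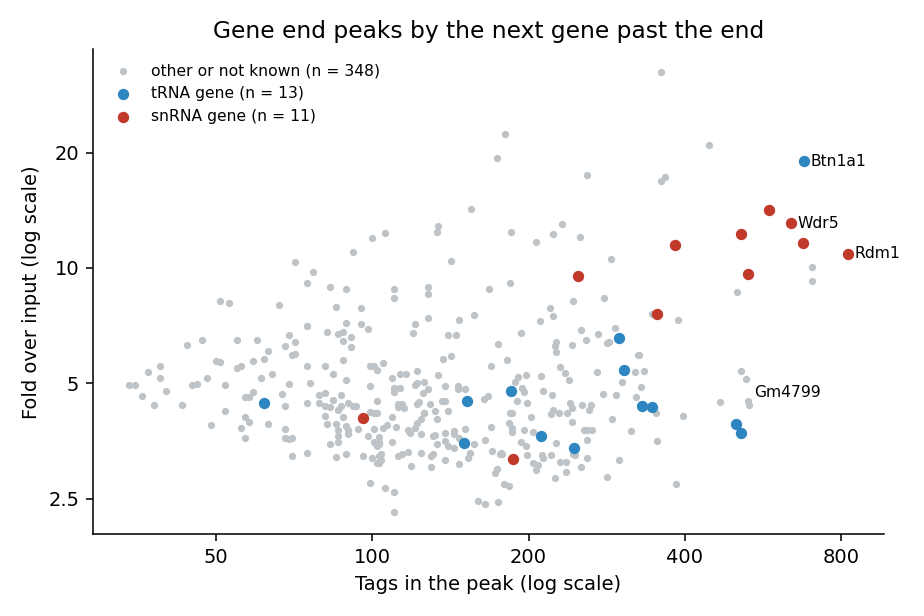
Fold over input against tags for each gene end peak (both axes on log scales), coloured by the kind of the next gene past the 3' end. Peaks with a snRNA gene next gather at the upper right (median 513 tags, fold 10.9), and those with a tRNA gene next have a median of 299 tags and folds below 10 apart from Btn1a1 (19.0).

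**Figure D4:**
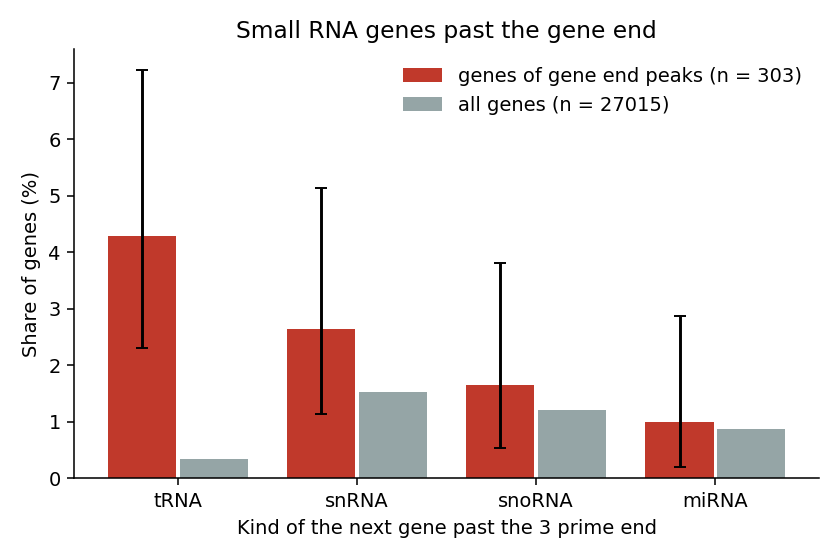
Share of the 303 genes of gene end peaks with a known next gene (vertical axis, percent, bars with exact binomial 95% intervals) and of all RefSeq genes whose next gene past the 3' end is of each small RNA kind (horizontal axis). For tRNA genes the shares are 4.29% and 0.341%, and for the other 3 kinds the share of RefSeq genes lies within the interval.

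The other small RNA neighbours were few. Tmem107, a gene of the ciliary transition zone, had a window that held its gene end, with a fold of 8.64 and 505 tags, and the next gene was Snord118, which codes for the nucleolar RNA U8. Ypel4 had 2 peaks 3381 and 5312 bp past its end, with folds of 7.33 and 6.94, and the microRNA gene Mir130a next. Kcnrg had a fold of 3.68 with Mir16-1 next, and Sall1 5.26 with Mir8110 next. The 5 mature RNAs that RefSeq (GRCm38.p6) lists for these 3 genes are given because they identify these neighbours. Capitals mark the seed, bases 2 to 8, and no seed is shared.
mmu-miR-130a-3p: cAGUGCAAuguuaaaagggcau
mmu-miR-130a-5p: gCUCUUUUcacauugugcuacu
mmu-miR-16-5p: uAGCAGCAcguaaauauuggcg
mmu-miR-16-1-3p: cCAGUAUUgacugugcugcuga
mmu-miR-8110: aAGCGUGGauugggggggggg

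Median folds were close for both directions of the next gene, and their quartile ranges overlapped. The direction was known for only part of the 316 peaks with a known next gene. It was known for none of the 24 with a tRNA or snRNA gene next, so these are left out here. At 93 peaks the next gene ran the same way, so that its start faced the gene end, and the median fold was 4.92 (quartiles 4.10 and 5.92). It ran the opposite way at 93 others, with a median of 4.49 (3.67 and 6.43). A fold of 10 was reached by 5 of the first and 7 of the second. The next gene had a promoter peak of its own in 4 of the first and 9 of the second. Across all protein-coding genes of RefSeq, 13.2% had a promoter peak, and the next genes here also include noncoding ones. No difference is read from these counts.

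The start of another gene named in the list lay within 20000 bp of 35 gene end peaks. Beside Ncapg2, the start of Hist1h2bk was placed 802 bp from the centre of the Hist1h2ah window, and that of Aspm 1828 bp from that of Zbtb41. The 802 bp is also the distance from the Hist1h2ah window to the nearest other listed peak. The Hist1h2bk start may thus be known only by that peak's window. Aspm codes for a spindle pole protein, and the peak in the 3' UTR of Zbtb41 had a fold of 3.04.

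Most genes of gene end peaks had no promoter or intragenic peak. Of the 361 genes, 255 (70.6%) had no listed peak at the promoter or inside the gene. Some of these had several gene end peaks, such as Snx6 and Fblim1 with 3 each. The matching share for genes of upstream peaks was not computed. A promoter peak was listed for 68, or 18.8% (interval 14.9% to 23.3%), where 52.9% of all genes named in the list have one. That larger share includes the genes named for a promoter peak alone. Among genes of upstream peaks it was 13.8% (interval 10.4% to 17.8%), and among genes with an intragenic entry 15.6%. The intervals for genes of gene end and upstream peaks overlapped. At genes with peaks at both ends, the gene end peak had the higher fold in 22 and the promoter peak in 46. The medians were 4.73 at the gene end and 6.08 at the promoter.

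E2f3, another activating E2F, showed 3.64-fold enrichment at 711 bp past its end, against 27.3-fold at its promoter. Hist1h2ah, a histone H2A gene, had 4.50 at 87 bp past its end and 35.4 at its promoter. The called region of its gene end peak was 2075 bp long, and another listed peak lay only 802 bp away. Signal at this gene end may therefore not be separate from that of the neighbouring peak. For Tuba1b, an alpha-tubulin gene, the folds were 3.85 and 24.7, and for Gadd45b, a stress response gene, 3.88 and 17.0. Histone H2A and tubulin genes have near-identical copies, so reads could be shared among them.

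For a gene with several gene end peaks, the strongest was compared. The gene end peak was the stronger one at Ccne1 and Yap1, given above, and at Epm2aip1 (11.7 against 7.41 at the promoter), Pecr (11.5 against 4.93), Azin1 (8.94 against 7.72), Tmem107 (8.64 against 8.15) and Gpr180 (8.53 against 7.29). It was the weaker one at Rdm1 (10.9 against 16.0), Mbd4 (9.14 against 10.4) and the metallothionein gene Mt1 (8.36 against 11.2). Gene end and promoter folds thus did not rank these genes in the same order.

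**Figure D5:**
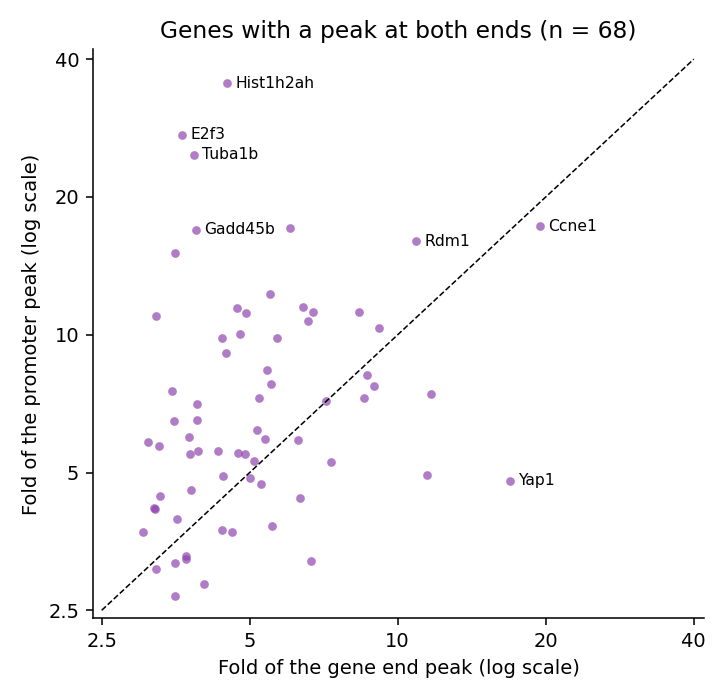
Fold of the promoter peak (vertical axis) against fold of the gene end peak (horizontal axis), both on log scales, for the 68 genes with both, with equal folds as a dashed line. In 46 genes the point lies above the line, with Hist1h2ah, E2f3 and Tuba1b farthest above and Yap1 farthest below.

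In the RefSeq promoters, a match to the motif on either strand was found for 3 of 55 genes with peaks at both ends (5.45%, interval 1.14% to 15.1%). It was found for 11 of 233 genes with a gene end peak and no promoter peak (4.72%, interval 2.38% to 8.29%), for 8.999% of 2378 genes with any promoter peak and for 2.32% of all 27025 genes in the table. Matches on the 2 strands may overlap. Ccne1 and Tuba1b had no match in this window.

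Across all protein-coding genes of RefSeq, 1.52% had a gene end peak and 13.2% a promoter peak, and the counts of the gene lists are to be read against these shares. Of 70 genes of G1/S control and replication, 4 had a gene end peak (5.71%) and 45 a promoter peak (64.3%). Beside Ccne1, these were Orc5, a subunit of the origin recognition complex (fold 4.62 at 18125 bp), and the inhibitor genes Cdkn1b (4.33 at 6643 bp) and Cdkn1a (4.22 at 40 bp), which code for p27 and p21. In the E2F family and its partners, 2 of 18 (11.1%) had a gene end peak, E2f3 and Lin52, a subunit of the MuvB complex (fold 5.70 at 14678 bp). In the lists of DNA repair and of mitosis, 0 of 33 genes each had one, a count that is near what the share over all genes gives for so short a list. Such genes outside the lists did have gene end peaks, as examples chosen after their values were seen show. Among them were the repair genes Smug1 (12.0), Mbd4 (9.14) and Rad18 (3.22) and the mitotic genes Kif20b (5.41) and Prc1 (4.84).

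Among 24 hepatocyte transcription factors, 2 (8.33%) had a gene end peak. Cebpb had a fold of 4.75 with its gene end in the window and Foxa2 4.61 at 12312 bp, with 322 tags. Of 28 genes of drug metabolism and the urea cycle, 2 (7.14%) had a gene end peak, among them the glutathione transferase gene Gstm1 with a fold of 3.80. Lpin2, a phosphatidate phosphatase gene, was the single one of 26 lipogenesis genes (3.85%), with 2.94 at 259 bp. The lists of cholesterol and bile acids (27 genes), glucose metabolism (36), fat oxidation and respiration (26), secreted hepatocyte proteins (28) and markers of other liver cell types (24) had 0, against 1.52% of all protein-coding genes. Lists this short would hold fewer than 1 at that share, and genes of these kinds outside the lists had gene end peaks, such as the respiratory chain gene Ndufa8 (10.4) and the secreted apolipoprotein gene Apof (4.66).

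In growth factor signalling 3 of 33 genes (9.09%) had a gene end peak, against the same 1.52%. These were the receptor genes Met, for hepatocyte growth factor (5.05 at 10607 bp), and Egfr (3.27 at 2746 bp), and Socs3, an inhibitor of cytokine signalling (4.72 at 2420 bp). The apoptosis list of 24 genes had Bcl2l11, the gene of Bim (4.03 at 17093 bp). Over all 14 lists, 15 of 429 genes had a gene end peak (3.50%, against 1.52%), with a median fold of 4.33 beside 4.50 over all gene end peaks. A promoter peak was listed for 146 (34.03%, against 13.2%). Nothing particular to a list is read from these counts.

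By symbol, predicted genes and olfactory receptor genes made up a larger share of the genes of gene end peaks than of other peaks. Predicted genes with Gm numbers were 28 of the 361 genes (7.76%), against 1.82% of the genes of other peaks. Olfactory receptor genes were 8 (2.22%), against 0.318%, with folds of at most 6.43. The shares of these symbols over all RefSeq genes and over genes of upstream peaks are not given here. They are therefore not read as particular to gene ends. Zinc finger genes named Zfp were 10 (2.77% against 2.27%) and solute carriers 7 (1.94% against 1.72%). By RefSeq, 332 of the genes were protein-coding, 9 noncoding RNA genes and 9 pseudogenes, and 10 were not matched.

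Several gene end peaks stood close to another listed peak. A second peak lay within 10000 bp of 63 of them, or 16.9% (interval 13.3% to 21.1%). The share was nearly the same in upstream peaks, 16.5% (12.9% to 20.6%). Among all peaks other than gene end peaks it was 12.6% (11.7% to 13.5%), and this interval overlapped that for gene ends. Snx6 and Fblim1, a gene of cell adhesions, had 3 gene end peaks each, and 10 genes had 2. Those past Fblim1 were weak, with folds of 3.73, 3.43 and 3.10, while those past Azin1 had 8.94 and 8.79.

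By chromosome, gene end peaks made up 10.9% of the peaks on chromosome 13 (26 peaks, interval 7.23% to 15.5%) and 4.29% on chromosome 8 (14 peaks, interval 2.37% to 7.10%), the highest and lowest shares among autosomes. Over the whole list the share was 6.56%. These 2 intervals did not overlap, while each of them overlapped those of the other chromosomes, and no test was run. The 2 chromosomes were picked as the extremes, so no difference is read from their intervals. Of the peaks on chromosome 13, 7 were those with a tRNA gene next described above.

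The peak 160 bp past Gm4799 combined a very high pileup with a low fold. Its height was 379 with 529 tags, a fold of 4.50 and a false discovery rate of 8.23%. Height divided by fold was 84.2 at Gm4799, against a median of 9.45 over gene end peaks and a maximum of 47.8 over all other peaks. The input signal at this place was not analysed here.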

How the data were processed

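ChIP and input libraries were made from E2F1-infected mouse hepatocytes, and 1 peak list with 6887 entries was analysed. The submitters' processing notes name Bowtie2 (2.1.0) and the build mm9, and the column names are those of the peak caller MACS, per the file headers. Caller settings, peak selection and pooling of replicates were not stated. The deposited columns are a whole-number tag count, the height of the pileup signal, a fold (ratio over expected background), a score (10 times the negative log10 of the p-value) and a false discovery rate in percent, all per peak and the authors' own. A further deposited column, FERR, was not used.

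Starts were read as counted from 0, which puts the summit at the centre of the window in all 6887 entries, and are printed counted from 1. Gene symbols were matched to RefSeq GRCm38.p6 (5492 of 5587) for names, gene length, kind and gene order only. Direction came from RefSeq or from the order of a gene's own peaks, which were the same in 206 of 206 genes that allow both. Shares have exact Clopper-Pearson 95% intervals, which cover counting error over peaks only. No test between samples was possible with 1 record a group. Scripts ran in Python 3.11.15 with pandas 2.3.3 and scipy 1.17.1 and were tested on simulated data. Named were the 15 highest folds, the 8 highest in 3' UTRs, the 5 highest tag counts, the extremes, the genes of the lists, 10 genes with both peaks and peaks at 2 gene ends. Other names were chosen after values were seen. The members and gene lists were chosen with earlier results of these data known. Some genes that these rules name are not reported here.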

Additional observations from a re-analysis of the deposited data

How the results depend on the processing

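No paired analysis was possible because the result comes from no test between samples. With any entry at a gene end enough for membership, peaks numbered 781 (13.8% of the list). With a false discovery rate of at most 5%, the median fold was 5.08, the median tag count 147 and 11.2% reached a fold of 10. At a rate of at most 1%, there were 120 peaks (5.32% of the list), with a median fold of 6.80, 223 tags and 24.2% at a fold of 10, and 23.3% had a gene with a promoter peak. The share of all listed peaks with a fold of 10 was not computed at these limits. The shares of 11.2% and 24.2% are therefore not comparable with the 12.8% of the whole list, which has no such limit. Within 5000 bp of the gene end there were 201 peaks (3.55%), with a median fold of 4.33 and 4.98% at a fold of 10, and within 1000 bp 111 (1.96%), with 4.33 and 4.51%. List genes had 6 peaks at a rate of at most 5% and 7 within 5000 bp, in place of 15. Alternatives for tRNA and snRNA neighbours were chosen after seeing the data: 15.1% of the peaks at a rate of at most 1%, 8 peaks (4.71%) within 5000 bp, and 42 (13.3%) with any of the first 3 genes counted, in place of 24 of 316 peaks (7.59%). Without chromosome 13 there were 17 (5.80%). The causes were not tested, beyond fewer or more peaks being counted. Without the 24 peaks the median fold was 4.49. Of 80 alternative values, 43 stayed within the interval or 1.5 times of the value reported. The 43 include the values of gene lists without any gene end peak. The alternatives for lists kept only a part of the same peaks, so the values of those lists could not change. The 43 is therefore not read as a measure of stability. Depth is unknown, and a gene without a listed peak may still be bound.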
